A study of Mus musculus with 6 samples.

Results

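The EGF receptors and their ligands were examined in colon tumors of mice as a set of 10 genes chosen by name: the receptors Egfr, Erbb2 and Erbb3, and the ligands Egf, Tgfa, Btc, Areg, Ereg, Hbegf and Nrg1. Of these 10 genes, 9 had a probe set of their own in the platform annotation, and all 9 were among the 19506 probe sets tested of 35556 on the array. Areg was paired with no probe set there and was not analysed here. The 3 double knockout (DKO) tumors came from mice of the genotype CDX2P-G19Cre;Apcflox/flox;Tgfbr2flox/flox. The 3 Apc knockout (Apc KO) tumors came from mice of the genotype CDX2P-G19Cre;Apcflox/flox. All were labelled C57BL/6J and 3 weeks old. Both groups lack Apc in the tumor and carry the same Cre, which is driven by a fragment of the human CDX2 promoter in colon epithelium and becomes active by chance in single cells after a frameshift. The DKO mice also carry the floxed Tgfbr2 alleles. Tumor tissue was cut out by laser microdissection, and each tumor sample gave 1 Affymetrix Mouse Gene ST array. The signals are log2 values after robust multichip analysis (RMA).

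The receptors are tyrosine kinases of the cell surface that form pairs when a ligand binds. Egfr binds most of the ligands, Erbb2 has no known soluble ligand and acts as a partner, and Erbb3, whose own kinase is weak, binds neuregulins such as Nrg1. The ligands are made as membrane proteins and released by proteases, and in the intestine this pathway is known for driving epithelial proliferation and repair through Ras, ERK and PI3 kinase.

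Tgfbr2, the gene deleted in 1 group only, was at 10.98, 10.35 and 10.47 in DKO tumors and at 11.35, 11.37 and 11.09 in Apc KO tumors. Where its probes lie with respect to the floxed exons was not examined, so this level does not check the genotype. DKO tumor 2 stood apart: its correlation with the other tumors over all probe sets was 0.956 to 0.968, against 0.980 to 0.988 among the other 5. The 10 markers of colon epithelium were all measured, with mean log2 signals of 11.97 to 12.28 in DKO tumors and 11.80 to 12.22 in Apc KO tumors. The highest mean of this list, 12.28, was that of DKO tumor 2, but its genes did not all follow. Cdx2 (8.24) and Krt18 (12.55) were at their lowest in DKO tumor 2. Vil1, Cdx1, Lgals4, Krt19, Cdh1, Krt8 and Krt20 were at their highest there. Because DKO tumor 2 stood apart, the difference of each receptor and ligand is also given without DKO tumor 2. No probe set passed the Benjamini-Hochberg adjusted threshold of 0.05, either in limma (0% of 19506) or in the methods' t-test. With unadjusted p-values below 0.05, there were 347 sets higher and 745 lower in DKO tumors by limma, and 409 and 589 by the methods' t-test.

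Over all 6 tumors, betacellulin (Btc) showed the largest difference of the set, 1.58-fold lower in DKO tumors. Tgfa and Ereg were the next, each 1.36-fold lower, and Nrg1 was 1.18-fold lower. Without DKO tumor 2, Ereg had the largest log2 difference, −0.66, against −0.48 for Btc. Erbb2, Erbb3 and Hbegf had higher means in DKO tumors, while Egfr and Egf lay close between the groups. Of the 9 genes, 6 had lower means in DKO tumors, where 47.7% of all probe sets tested did, and 3 had higher means, where 52.3% did. The 9 genes had a median log2 difference of −0.08, against 0.01 over all probe sets tested. None of the 9 passed the adjusted threshold in limma, and 1 of them, Btc, had an unadjusted p under 0.05, as did 5.6% of all probe sets. Btc was lower, like 3.82% of all probe sets, and none of the 9 was higher at that threshold, where 1.78% of all probe sets were. The groups did not overlap for 2 of the 9, Btc and Erbb3, and for 12.2% of all probe sets.

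**Figure D1:**
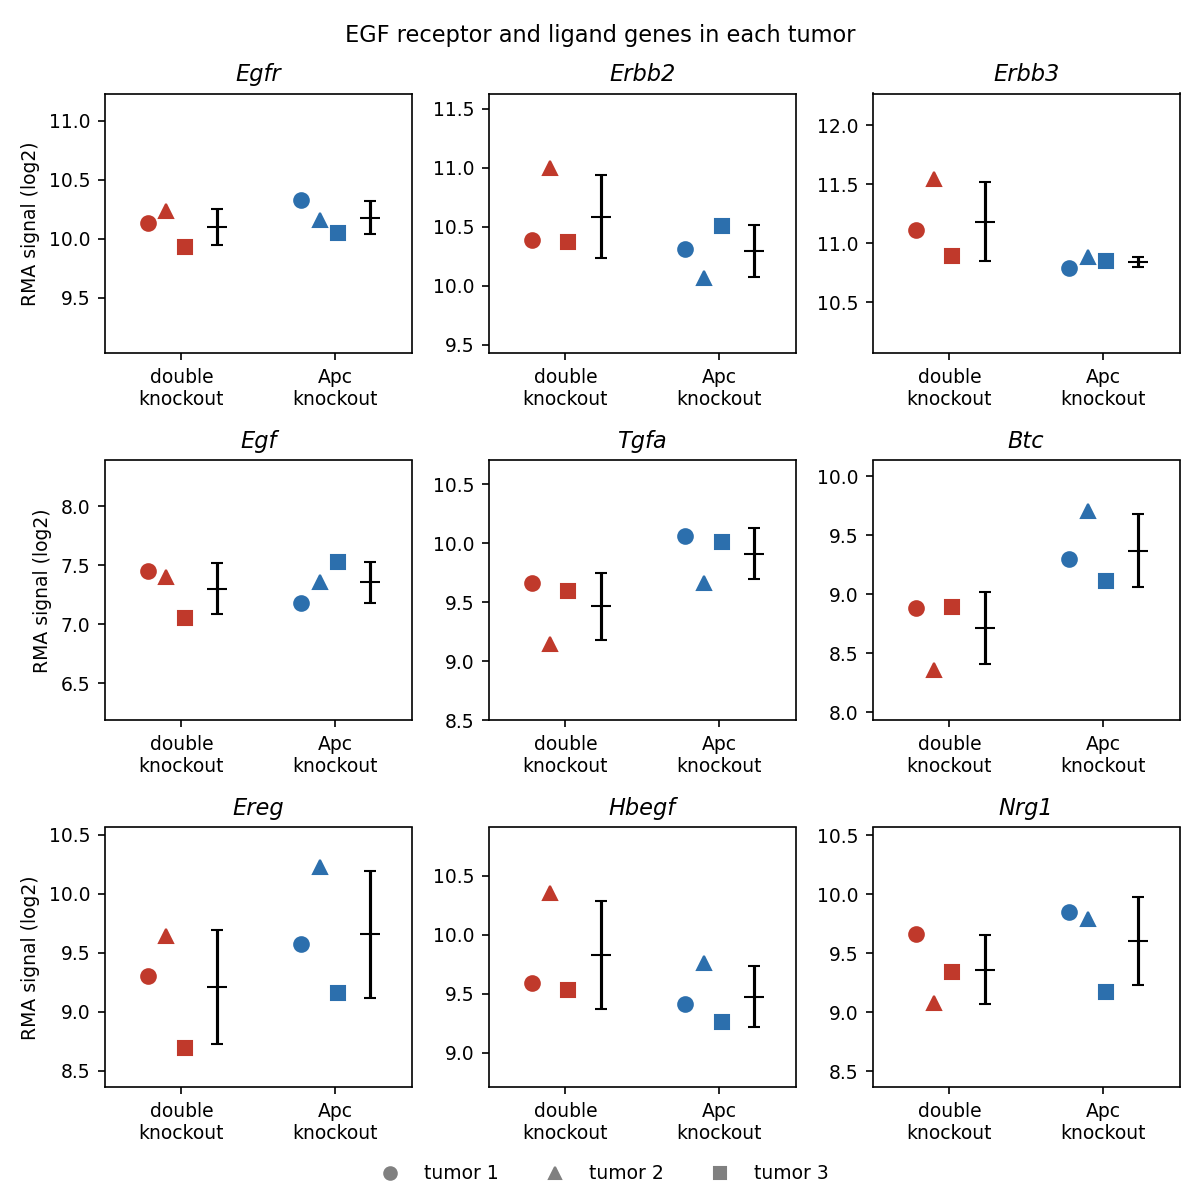
RMA signal on the log2 scale (vertical axes, each spanning the same number of log2 units) of the 9 measured receptor and ligand genes in DKO tumors (red) and Apc KO tumors (blue). Symbols mark the 3 tumors of each group, and bars give the mean and SD. The groups are separate for Btc and Erbb3 and overlap for the other 7 genes.

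Among the receptors, Erbb3 had signals of 11.11, 11.54 and 10.89 in DKO tumors 1 to 3 and of 10.79, 10.88 and 10.85 in Apc KO tumors 1 to 3. All DKO tumors were above all Apc KO tumors, but tumor 3 of the DKO group was only just above Apc KO tumor 2. The mean was 11.18 ± 0.33 (SD, n = 3) in DKO tumors and 10.84 ± 0.045 (SD, n = 3) in Apc KO tumors. This was 1.27-fold higher, with a 95% confidence interval of 0.94-fold to 1.71-fold (log2 difference 0.34, standard error 0.18, adjusted p = 0.821 from limma). The 2-sided exact permutation test gave p = 0.1, below which 3 tumors against 3 cannot go. The groups did not overlap in this direction for 5.25% of all probe sets. Without DKO tumor 2 the log2 difference of Erbb3 was 0.16, or 1.12-fold.

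Erbb2, the partner receptor without a known soluble ligand, had signals of 10.39, 11.00 and 10.37 in DKO tumors and 10.31, 10.06 and 10.51 in Apc KO tumors. The groups overlapped, and DKO tumor 2 alone lay above the rest. The log2 difference was 0.29 (standard error 0.21, adjusted p = 0.826 from limma), and 0.09 without that tumor. Another probe set carries the symbols of Erbb2 and of Sympk, a scaffold protein of mRNA 3′ end processing, so its signal cannot be assigned to either. It was at 8.80, 9.39 and 7.84 in DKO tumors and at 8.09, 8.11 and 8.63 in Apc KO tumors. In both probe sets the highest signal was that of DKO tumor 2.

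Egfr, the receptor of most of these ligands, had signals of 10.13, 10.23 and 9.93 in DKO tumors and of 10.33, 10.16 and 10.05 in Apc KO tumors. Its range over the 6 tumors, 0.40 on the log2 scale, was the smallest of the 9 genes. The log2 difference was −0.08 (standard error 0.13, adjusted p = 0.903 from limma), with a 95% confidence interval of 0.76-fold to 1.18-fold, so a change of 2-fold in either direction lay outside the interval. Without DKO tumor 2 the log2 difference of Egfr was −0.15, and without DKO tumor 3 it was 0.0022.

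Among the ligands of Egfr, Btc, which also activates Erbb4, had signals of 8.88, 8.36 and 8.89 in DKO tumors. In Apc KO tumors it was at 9.29, 9.71 and 9.11. All DKO tumors were below all Apc KO tumors. The mean was 8.71 ± 0.30 (SD, n = 3) in DKO tumors and 9.37 ± 0.31 (SD, n = 3) in Apc KO tumors, which is 1.58-fold lower. The log2 difference was −0.66 (standard error 0.22, 95% confidence interval −1.19 to −0.13, unadjusted p = 0.0227 and adjusted p = 0.821 from limma; 2-sided exact permutation test, p = 0.1). The groups did not overlap in this direction for 6.94% of all probe sets. Without DKO tumor 2, the lowest of the 6, the log2 difference of Btc was −0.48 (unadjusted p = 0.0469 from limma), or 1.40-fold lower. The unadjusted p of Btc was above 0.05 in the methods' t-test (0.0574), in limma with the replicate number as a block (0.0594) and in limma without Apc KO tumor 2 (0.0652).

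Btc lies on mouse chromosome 5, where the protein-coding genes Epgn, Ereg, Areg and Btc follow each other in the RefSeq gene order of GRCm38.p6. Epgn, the ligand epigen, was at 6.01, 6.28 and 6.20 in DKO tumors and at 6.24, 6.36 and 6.21 in Apc KO tumors. Its log2 difference was −0.11 (standard error 0.11, adjusted p = 0.850 from limma), against −0.44 for Ereg and −0.66 for Btc. The Epgn signals lay only a little above the signal level required for testing. No detection call was made, so the small difference does not show that Epgn was unchanged. The sequence before the start of Btc is shown because this gene had the largest difference of the set over all 6 tumors. It is the 250 bases upstream of the RefSeq start, at chr5:91402995-91403244 on the minus strand of GRCm38.p6, written 5′ to 3′.
Btc: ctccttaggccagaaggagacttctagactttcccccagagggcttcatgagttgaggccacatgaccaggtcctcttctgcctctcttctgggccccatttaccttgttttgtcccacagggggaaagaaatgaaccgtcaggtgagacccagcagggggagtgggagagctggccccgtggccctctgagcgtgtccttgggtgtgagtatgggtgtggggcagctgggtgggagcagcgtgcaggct
It was searched on both strands for CAGAC, the core that Smad proteins bind, and for TGANTCA, the AP-1 site, which do not overlap each other. Neither is in this window, so no base is in capitals. CAGAC is in 42.2% and TGANTCA in 6.75% of all 32851 upstream windows of this length. Among the other genes of the set with a listed window, CAGAC is in those of Tgfa and Egf. It is not in those of Egfr, Erbb2 or Areg. The site is 85 bases before the listed start of Tgfa and 72 bases before 1 of the 2 starts of Egf. The Tgfa window runs to chr6:86195221, past the RefSeq gene start at 86195038, so its site lies inside that gene. TGANTCA is in none of these windows.

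Tgfa, transforming growth factor alpha, had signals of 9.66, 9.14 and 9.59 in DKO tumors and of 10.06, 9.66 and 10.01 in Apc KO tumors. The groups met at one point, with DKO tumor 1 level with Apc KO tumor 2. The mean was 9.46 ± 0.28 (SD, n = 3) in DKO tumors and 9.91 ± 0.22 (SD, n = 3) in Apc KO tumors, which is 1.36-fold lower. On the log2 scale the difference was −0.45 (standard error 0.19, unadjusted p = 0.0529 and adjusted p = 0.821 from limma), and −0.28 without DKO tumor 2.

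Ereg, the ligand epiregulin, varied most among the tumors, over a range of 1.54 on the log2 scale. It was at 9.31, 9.64 and 8.69 in DKO tumors and at 9.58, 10.23 and 9.16 in Apc KO tumors, so that 2 of the DKO tumors lay within the range of the Apc KO tumors. For Ereg, the log2 difference was −0.44 (standard error 0.35, adjusted p = 0.832 from limma), and −0.66 without DKO tumor 2. Leaving out Apc KO tumor 2, the highest of the 6, gave −0.16.

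Hbegf, the heparin-binding ligand that also serves as the receptor of diphtheria toxin in primates, had signals of 9.60, 10.36 and 9.54 in DKO tumors. In Apc KO tumors it was at 9.41, 9.76 and 9.26. DKO tumor 2 was the highest, and the other DKO tumors lay within the range of the Apc KO tumors. Hbegf had a log2 difference of 0.35 (standard error 0.26, adjusted p = 0.827 from limma), and 0.09 without DKO tumor 2.

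Egf itself had signals of 7.45, 7.40 and 7.05 in DKO tumors and of 7.18, 7.36 and 7.52 in Apc KO tumors. No detection call was made, so the share of background in these signals is not known. Egf overlapped between the groups with a log2 difference of −0.05 (standard error 0.16, adjusted p = 0.949 from limma). It was −0.10 without DKO tumor 2. Leaving out tumor 3 of the DKO group gave 0.07, and leaving out tumor 3 of the Apc KO group gave 0.03.

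Nrg1, the neuregulin that binds Erbb3 and Erbb4, had signals of 9.66, 9.08 and 9.34 in DKO tumors and of 9.85, 9.79 and 9.17 in Apc KO tumors. The groups overlapped, with the lowest signal in DKO tumor 2 and the next in tumor 3 of the Apc KO group. Nrg1 had a log2 difference of −0.24 (standard error 0.24, adjusted p = 0.838 from limma), and −0.10 without DKO tumor 2.

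**Figure D2:**
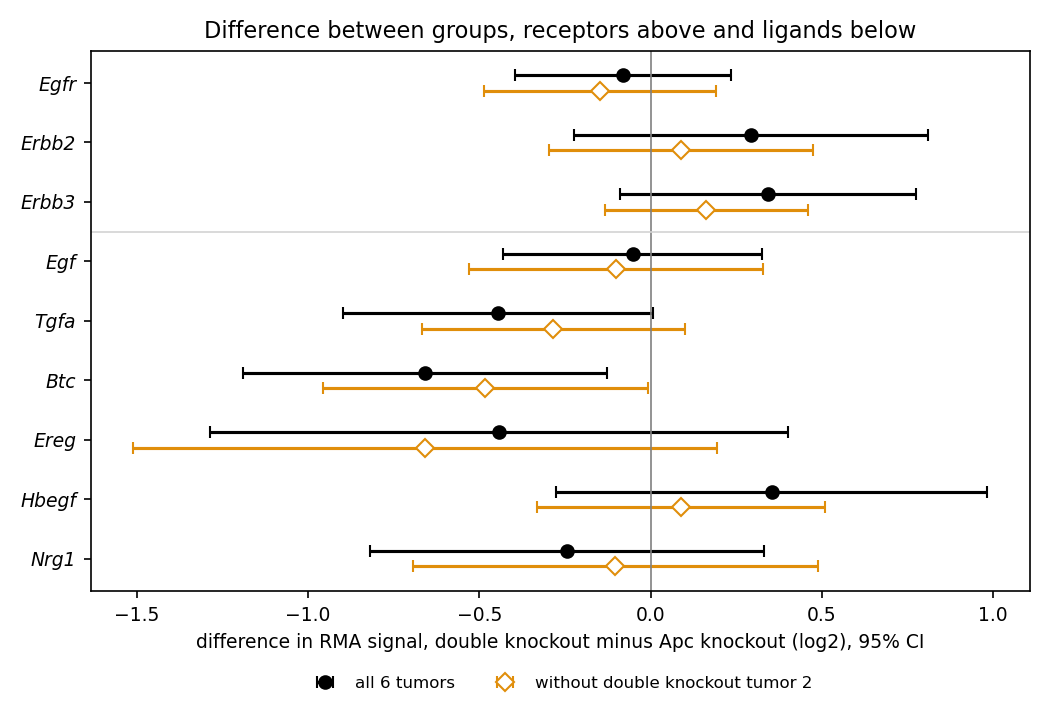
Log2 difference in RMA signal, DKO minus Apc KO (horizontal axis), for the receptors and the ligands (vertical axis), with 95% confidence intervals from limma, over all 6 tumors (black circles) and without DKO tumor 2 (open diamonds). The interval of Btc lies below 0 in both fits, from −1.19 to −0.13 over all tumors, and those of the other 8 genes include 0 in both.

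Of the 6 tumors, DKO tumor 2 had the highest signal for Erbb2, Erbb3 and Hbegf and the lowest for Tgfa, Btc and Nrg1, and so lay at an extreme for 6 of the 9 genes. It lay at an extreme for 56.8% of all probe sets tested. Without tumor 2, the log2 differences of the 9 genes ranged from −0.66 for Ereg to 0.16 for Erbb3. The count of 6 lower and 3 higher means was the same without this tumor.

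Lists of marker genes were read in the same tumors. The 10 markers of differentiated colonocytes had a mean log2 signal of 12.22 in DKO tumor 2, against 10.33 and 9.19 in DKO tumors 1 and 3 and 9.25 to 10.31 in Apc KO tumors. The 9 markers of smooth muscle were at 10.45 in DKO tumor 2, against 8.67 and 8.05 in DKO tumors 1 and 3 and 8.12 to 8.71 in Apc KO tumors. The 11 measured Wnt target and crypt stem cell genes, of 13, were at 8.92 in DKO tumor 2, against 11.15 and 11.21 in DKO tumors 1 and 3 and 11.35 to 11.56 in Apc KO tumors. The tumor with the highest Erbb2, Erbb3 and Hbegf signals and the lowest Tgfa, Btc and Nrg1 signals was thus also the highest in the means of the colonocyte and smooth muscle lists and the lowest in that of the crypt list. The colonocyte marker Guca2a, highest in Apc KO tumor 1 (11.64), and the crypt gene Ascl2, lowest in Apc KO tumor 3 (7.70), did not follow. Krt20 is in both the colonocyte and the colon epithelium list. The 12 neutrophil markers were at 7.42 to 8.57 in DKO tumors and 8.52 to 9.46 in Apc KO tumors, and all 12 had lower means in DKO tumors (11 after median centring). Csf3r (log2 difference −0.016) and Camp (−0.046) lay close between the groups. Ly6g was highest in DKO tumor 2 (13.15) and Mmp9 in DKO tumor 3 (11.52). DKO tumor 2 had the highest neutrophil level of the DKO tumors, 8.57, and the lowest Btc of all 6, and DKO tumor 1 the lowest neutrophil level, 7.42, with Btc at 8.88, while Apc KO tumors 1 and 2 were the highest in both. Macrophage markers (11 genes) were at 9.19 to 9.78 in DKO tumors and 9.41 to 9.78 in Apc KO tumors, and fibroblast markers (9 genes) at 9.21 to 10.28 in DKO tumors and 9.45 to 9.97 in Apc KO tumors. Endothelial markers (7 genes) were at 8.60 to 8.87 in DKO tumors and 8.55 to 9.06 in Apc KO tumors, and markers of T and NK cells (8 genes) at 6.94 to 7.47 in DKO tumors and 6.69 to 7.17 in Apc KO tumors. The part of these cell types in the differences of the receptors and ligands was not tested, and fewer cells of a type and less RNA per cell cannot be told apart in dissected tissue.

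**Figure D3:**
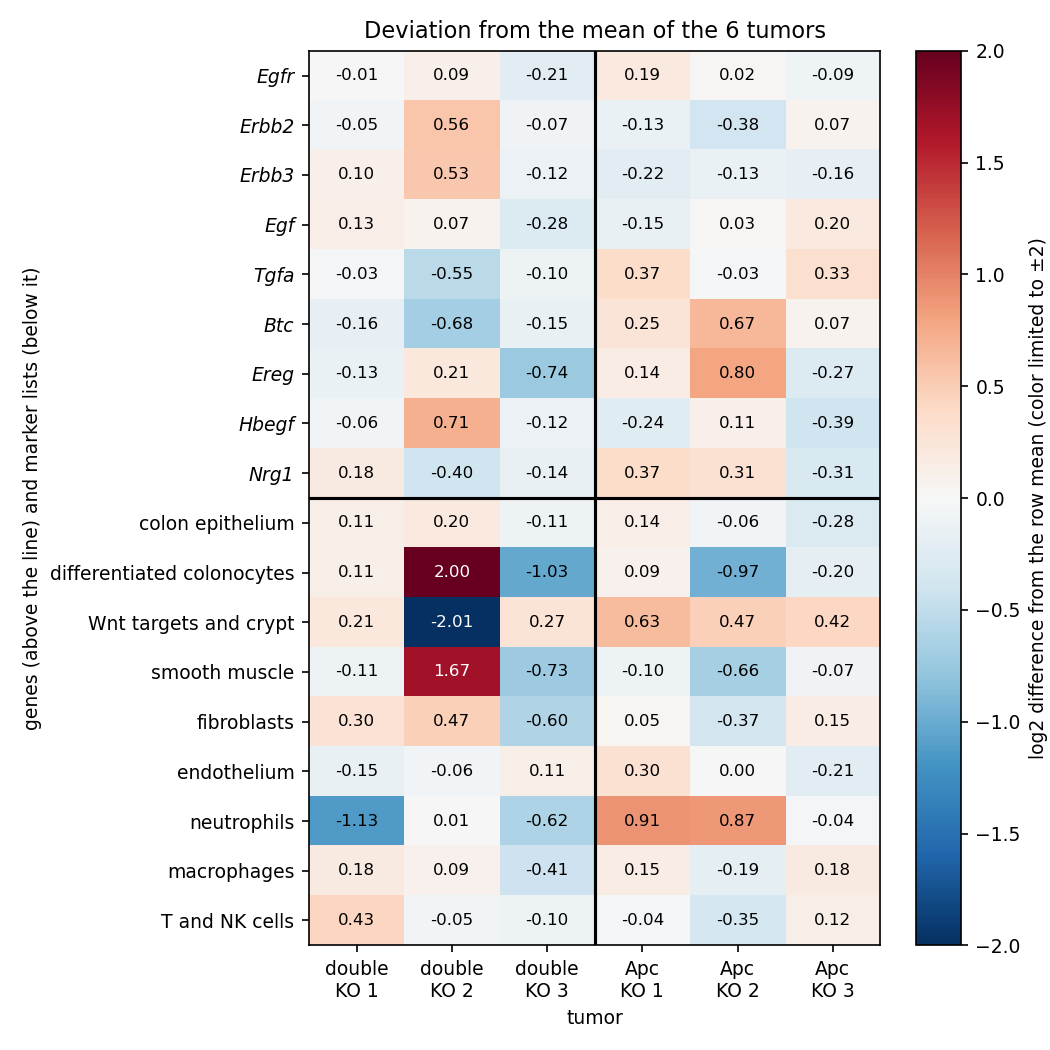
Log2 difference of each tumor (columns) from the mean of the 6 tumors, for the 9 receptor and ligand genes (upper rows) and for the mean signal of 9 marker lists (lower rows), written in each cell and shown in color. DKO tumor 2 has the highest colonocyte and smooth muscle rows and the lowest Wnt target and crypt row, at 12.22, 10.45 and 8.92 on the log2 scale before centring.

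The other members of the family were compared in the same way. Erbb4, a receptor for Btc and neuregulins, was at 5.86, 6.02 and 5.97 in DKO tumors and 5.94, 6.09 and 6.10 in Apc KO tumors. Nrg2 and Nrg4, further neuregulins, had log2 differences of −0.0044 and −0.08, and Erbb4 of −0.09. Nrg3 lay below the filter on signal, at 5.45 to 5.74 in DKO tumors and 5.31 to 5.55 in Apc KO tumors. Of the 4 tested genes Erbb4, Epgn, Nrg2 and Nrg4, all 4 had lower means in DKO tumors. It was 3 of 4 after median centring, after quantile normalization or without DKO tumor 2. None of the 4 passed limma at an unadjusted p under 0.05, and the groups overlapped for each. Erbb4 and Nrg4 (5.70 in DKO tumor 2 to 6.14 in DKO tumor 1), like Epgn, lay close to the signal level required for testing (5.88). No detection call was made, so the share of background in these signals is not known.

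Of 13 genes that release or transport the ligands, 9 had lower and 4 higher means in DKO tumors, with a median log2 difference of −0.08. Without DKO tumor 2, 7 had lower and 6 higher means, with a median of −0.05, where 49.5% of all probe sets tested had lower means. None of the 13 reached an unadjusted p under 0.05 in limma over all 6 tumors. Rhbdf2, the iRhom that brings Adam17 to the cell surface, had a log2 difference of −0.33 (standard error 0.17). Adam15, a metalloproteinase, had one of 0.34 (standard error 0.21) and Rhbdl2, an intramembrane protease that can cleave EGF, of 0.54 (standard error 0.35), and both were highest in DKO tumor 2 (0.13 for each without it). Adam10, the main protease for Btc and Egf, had a log2 difference of −0.23 (standard error 0.16), and −0.11 without DKO tumor 2. Adam17, the main protease for Tgfa, Ereg and Hbegf, was at 10.43, 10.40 and 10.56 in DKO tumors and 10.36, 10.36 and 10.26 in Apc KO tumors. It is named because, of this list, its groups alone did not overlap. Adam17 was higher in DKO tumors, with a log2 difference of 0.14 (standard error 0.10). The groups did not overlap in this direction for 5.25% of all probe sets.

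Of 20 negative regulators of the receptors and of Ras signaling, 15 had lower and 5 higher means in DKO tumors (14 and 6 after median centring), with a median log2 difference of −0.12. At an unadjusted p under 0.05 in limma, 3 of the 20 were lower (3.82% of all probe sets) and 0 higher (1.78% of all probe sets), and 0 passed the adjusted threshold. Cblb, a ubiquitin ligase of activated receptors, was at 10.38, 9.75 and 10.27 in DKO tumors and 10.60, 10.92 and 10.60 in Apc KO tumors (log2 difference −0.57, standard error 0.20). Sh3kbp1, an adaptor that joins Cbl proteins in receptor uptake, was at 9.33, 8.81 and 9.52 in DKO tumors and 9.90, 9.78 and 9.73 in Apc KO tumors (log2 difference −0.58, standard error 0.20). The groups did not overlap for either gene, and without DKO tumor 2 the log2 differences were −0.38 for Cblb and −0.37 for Sh3kbp1. Ptprj, a receptor phosphatase that acts on Egfr, was at 11.86, 11.67 and 11.82 in DKO tumors and 12.13, 12.27 and 11.91 in Apc KO tumors, also without overlap (log2 difference −0.32, standard error 0.13). These 3 were the genes of the list without overlap in the lower direction, which 6.94% of all probe sets showed. Spry1, an inhibitor of Ras signaling, had a log2 difference of −0.25 (standard error 0.17), and −0.07 without DKO tumor 2.

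Of 25 adaptors, Ras proteins and kinases, 20 were analysed here. Lower means in DKO tumors were found for 17 of the 20 and higher ones for 3 (16 and 4 after median centring), with a median log2 difference of −0.11. Of these, 3 were lower (3.82% of all probe sets) and 0 higher (1.78% of all probe sets) at an unadjusted p under 0.05 in limma, and 0 passed the adjusted threshold. Gab1, a docking protein of the receptors, was at 9.69, 9.71 and 9.77 in DKO tumors and 10.11, 9.99 and 10.42 in Apc KO tumors. Its log2 difference was −0.45 (standard error 0.13) over all tumors and also −0.45 without DKO tumor 2, which lay between the other DKO tumors. Gab2, its relative, was at 9.99, 9.75 and 9.60 in DKO tumors and 10.12, 10.40 and 10.17 in Apc KO tumors (log2 difference −0.45, standard error 0.14). Braf, a kinase between Ras and MEK, had a log2 difference of −0.35 (standard error 0.13; −0.23 without DKO tumor 2), and Pik3r2, a regulatory subunit of PI3 kinase, of −0.31 (standard error 0.14). These 4 genes, named for their small p, were the ones of the 20 whose groups did not overlap, against 6.94% of all probe sets in the lower direction.

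Of 19 genes known to be induced by ERK signaling, 15 had lower and 4 higher means in DKO tumors, with a median log2 difference of −0.20, the lowest of the 5 pathway lists. With 1 tumor left out the median lay between −0.37 (without DKO tumor 3) and −0.14 (without Apc KO tumor 2), and it was −0.26 without DKO tumor 2. The counts were the same after median centring and quantile normalization. At an unadjusted p under 0.05 in limma, 1 gene of the 19 was lower (3.82% of all probe sets) and 0 were higher (1.78% of all probe sets), so the share called was close to that of all probe sets, and 0 passed the adjusted threshold. That gene, Maff, a small Maf transcription factor, was at 7.75, 7.64 and 7.96 in DKO tumors and 8.22, 8.02 and 8.13 in Apc KO tumors (log2 difference −0.34, standard error 0.12). Phlda1 was at 11.35, 10.20 and 11.51 in DKO tumors and 11.82, 11.66 and 11.97 in Apc KO tumors, without overlap (log2 difference −0.80, standard error 0.35, and −0.39 without DKO tumor 2). Maff and Phlda1 were the 2 genes of the 19 whose groups did not overlap, against 6.94% of all probe sets in the lower direction. Plaur, the urokinase receptor, had a log2 difference of −0.59 (standard error 0.24), and Ier3, an immediate early gene, of −0.73 (standard error 0.31; −0.44 without DKO tumor 2). Plaur is also expressed by neutrophils, whose markers had lower means in DKO tumors, as given above. The part of neutrophils in the Plaur difference was not tested. Etv5, an ETS transcription factor named here after its values were seen, had the largest difference of this list. It was at 10.32, 8.50 and 10.84 in DKO tumors and 11.59, 10.70 and 11.65 in Apc KO tumors. The groups overlapped, and the log2 difference was −1.42 (standard error 0.63), and −0.73 without DKO tumor 2.

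**Figure D4:**
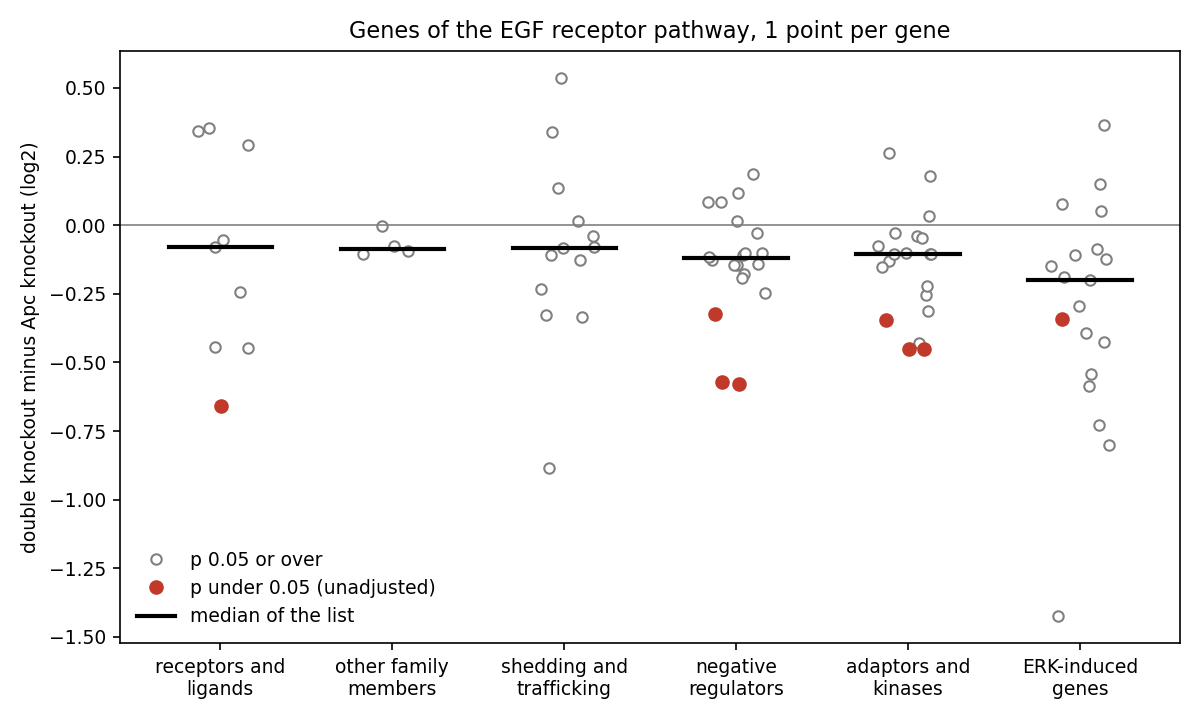
Log2 difference in RMA signal, DKO minus Apc KO (vertical axis), of each tested gene of the receptor and ligand set and of 5 lists of the same pathway (horizontal axis), with a black line at the median of each list. Filled points had an unadjusted p under 0.05 in limma, and all of them lie below 0. The medians lie between −0.20 and −0.08.

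The 3 genes with the widest range over the 6 tumors were Ereg, Btc and Hbegf, and for each the genes with the most similar profile were looked up. Likeness was the mean absolute difference between log2 signals over the 6 tumors after each gene was centred on its own mean, over 16784 genes with 1 probe set each. For Btc these were Cdc42ep1, an effector of Cdc42 (0.065), Zfp119a, a zinc finger protein (0.072), and Itpripl1 (0.073). Cdc42ep1 was at 8.64, 8.05 and 8.82 in DKO tumors and 9.04, 9.44 and 8.95 in Apc KO tumors, thus lowest in DKO tumor 2 and highest in Apc KO tumor 2 like Btc. For Hbegf they were Plekhf2 (0.020), Ptcd2 (0.041) and Smim15 (0.044), all highest in DKO tumor 2. For Ereg they were Per1, a gene of the circadian clock (0.11), Gramd3 (0.15) and Gk5 (0.15), all highest in Apc KO tumor 2 and lowest in DKO tumor 3. All these genes were chosen by their likeness over the same 6 tumors, so the shared highest and lowest tumors are no separate result.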

How the data were processed

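Laser-dissected colon tumors, 3 of double knockout and 3 of Apc knockout mice, were compared. The authors ran RMA (background correction, quantile normalization and probe summary) in GeneSpring GX and deposited log2 signals. No RMA version and no annotation build is given in the sources used here. The titles number the replicates 1 to 3 in each group and do not name the mouse of each tumor. Sets with 1 symbol in the platform annotation (21789 of 35556) were named by it, and the set with the highest mean was used per gene. Tested were sets with at least 1 symbol whose mean reached the 20th percentile of all sets (5.88), with limma 3.58.1 in R 4.3.3, without covariates. Benjamini-Hochberg adjustment was over all 19506, which include sets with several symbols. The filter stands in for a cut-off of the methods whose measure is not given. The named genes were all members, Tgfbr2, the 4 genes with the smallest p of each pathway list, all measured genes of the rest of the family, and the 3 genes most like each of the 3 members with the widest range. Adam17, Etv5 and the single markers of the colon epithelium, colonocyte, crypt and neutrophil lists were named in addition, after their values were seen. The members and lists were chosen with earlier results of these data known, so no list was tested as a set. The fit was checked on simulated data. Alternatives were the methods' t-test (unpaired, equal variances), other filters, all probe sets, median centring, quantile normalization, a trend with robust eBayes, the replicate number as a block, and each tumor left out. The number of arrays limits the precision.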

Additional observations from a re-analysis of the deposited data

How the results depend on the processing

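Under the 14 alternatives that gave a value, Btc, Tgfa, Ereg and Nrg1 kept a lower mean in DKO tumors and Erbb2, Erbb3 and Hbegf a higher one, and none of the 9 genes passed the adjusted threshold. Btc ranged from −0.79 to −0.48 (adjusted p from limma or the methods' t-test 0.564 to 0.945) and Erbb3 from 0.16 to 0.49. Btc was not the only gene under an unadjusted p of 0.05 in an alternative. With the replicate number as a block, Tgfa (0.0163) and Ereg (0.0239) were under it in limma. Tgfa was also under it in limma without DKO tumor 1 (0.0477) and without Apc KO tumor 2 (0.0301). Erbb3 was under it in limma without DKO tumor 3 (0.0291). Egfr turned its direction without tumor 3 of the DKO group (0.0022), over a range of −0.15 to 0.0022 with 1 tumor left out. Egf turned without tumor 3 of the DKO group (0.073) and of the Apc KO group (0.032), over a range of −0.14 to 0.073. Leaving out DKO tumor 2 moved Erbb2 to 0.088, Hbegf to 0.088 and Nrg1 to −0.10. The cause was not tested. Without DKO tumor 1 the median of the adaptors and kinases was −0.17 and that of the other family members −0.04, and without DKO tumor 3 that of the ERK-induced genes was −0.37. The counts at an unadjusted p ranged from 238 to 710 higher and from 438 to 1007 lower with 1 tumor left out. Testing all 35556 probe sets gave 690 higher, since more sets were tested. The labels number the tumors 1 to 3 in both groups. The deviations of same-numbered tumors from their group means had correlations of −0.20, −0.065 and 0.092. With 3 tumors per group, these values cannot tell whether the numbers pair the tumors. With the replicate number as a block, 421 sets were higher and 929 lower at an unadjusted p, and 0 passed the adjusted threshold. Each of the 9 genes had 1 probe set of its own, so no mean over sets of a gene was calculated. The set that Erbb2 shares with Sympk was not used for Erbb2. The number of arrays limits what could be detected.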
